A study of Mus musculus with 16 samples.

Results

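The proteasome genes were followed across follicular B cells (FoB), the resting B cells of spleen follicles, and germinal center B cells (GCB), the dividing B cells that mutate and select their antibody genes. Members were the protein-coding genes whose symbol begins with Psm, a letter from a to g and a digit, without the immunoproteasome subunits Psmb8, Psmb9 and Psmb10, and with at least 120 read counts over the 12 libraries. The rule gave 46 of the 25640 genes in the deposited count table, and it left out 1 pseudogene and no gene for low counts. All 46 passed the filter on low counts and were tested. Of these, 45 encode subunits, activators, an inhibitor or assembly chaperones of the proteasome. The remaining one, Psmc3ip, shares only the symbol: its protein acts in meiotic and homologous recombination, so counts that include it are given as such.

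Polyadenylated RNA came from spleen B cells sorted by flow cytometry from C57BL/6 mice at 10 weeks of age, immunized with 100 µg NP-CGG, a hapten coupled to a carrier protein, in alum for 7 days. All mice carried Rock2 flox/flox, with WT standing for mice without Cre and cKO for Rock2 flox/flox CD23-Cre mice, in which Cre is driven by a gene that turns on as B cells mature. Each cell type of each genotype formed a group (WT FoB, WT GCB, cKO FoB, cKO GCB), with 3 libraries each, numbered 1 to 3. No group carried CD23-Cre without floxed Rock2, so Cre itself and the loss of Rock2 cannot be told apart.

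Library totals ran from 23349512 to 26967943 counts. No label says that the libraries of a group came from separate mice, and the p-values therefore measure the spread between these samples only. All 8 germinal center markers were higher and all 6 follicular markers lower in GCB than in FoB, in both genotypes. Rock2 lay lower in each cKO library than in any WT library of its cell type without passing the edgeR test (log2 fold change -0.54 ± 0.18, adjusted p = 0.563 in GCB, and -0.42 ± 0.18, adjusted p = 1 in FoB). The 4 libraries of number 2 stood apart, with 3.72% to 5.50% of counts from mitochondrially encoded genes against 1.05% to 2.95% in the other 8. Libraries of the same number deviated together, so a fit with the number as a replicate block is given where it changes a call.

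The proteasome is the protease that degrades proteins tagged with ubiquitin. Its 20S core stacks outer alpha rings around inner beta rings that hold the cutting sites, and the 19S cap on its ends consists of a base, whose ATPases unfold the substrate, and a lid, which removes ubiquitin. Other caps, the PA28 and PA200 activators, can take the place of the 19S cap, and in B cells, as in other immune cells, beta subunits can be exchanged for immunoproteasome subunits that change which peptides are cut.

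Most proteasome genes were higher in GCB than in FoB. In WT, 33 of the 46 members rose, 3 fell and 10 did not pass the edgeR quasi-likelihood test at an adjusted p of 0.05. Of all 13708 genes tested, 25.6% rose and 22.8% fell. The median log2 fold change of the members was 0.68, beside -0.01 over all genes tested. With the replicate block, 41 rose, 4 fell and 1, Psma8, did not pass, where 35.2% of all genes rose and 34.3% fell. Leaving out the libraries of number 2 gave 28 higher and 1 lower member in WT, and leaving out those of number 1 gave 18 higher and 1 lower. Calls over all genes dropped as well, to 2844 higher and 2916 lower of 13971 without number 2. Without number 1 they were 2417 higher and 2198 lower of 13558, against 3512 and 3122 of 13708 with all libraries.

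In cKO the same comparison gave 32 higher members, 2 lower and 12 that did not pass, against 24.8% higher and 21.8% lower over all genes. The median log2 fold change was 0.73. The replicate block gave 41 higher and 4 lower, with 34.7% and 34.3% of all genes, so that the count of lower members went from 2 to 4. Without number 1 the counts in cKO were 20 higher and 1 lower, and without number 2 they were 27 and 1. Over all genes these were 2463 higher and 2041 lower of 13558, and 2891 and 2666 of 13971. Of the members, 30 rose in both genotypes and 2, Psme2b and Psmg4, fell in both. How many of all tested genes were called in the same direction in both genotypes was not counted.

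Every library took part in the shift. The log2 difference between the GCB and FoB libraries of the same number was above 0 in 3 of 3 numbers for 42 members and below 0 in 3 of 3 for the other 4, in WT and again in cKO. The share of all genes with the same direction in 3 of 3 numbers was not counted. The median over the members was 0.65, 0.67 and 0.73 in numbers 1, 2 and 3 of WT and 0.67, 0.62 and 0.88 in cKO. In WT, 36 members had all GCB libraries above all FoB libraries and 3 had all of them below, beside 29.5% and 26.8% of all genes. In cKO these were 34 and 4, beside 28.3% and 25.2%.

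**Figure D1:**
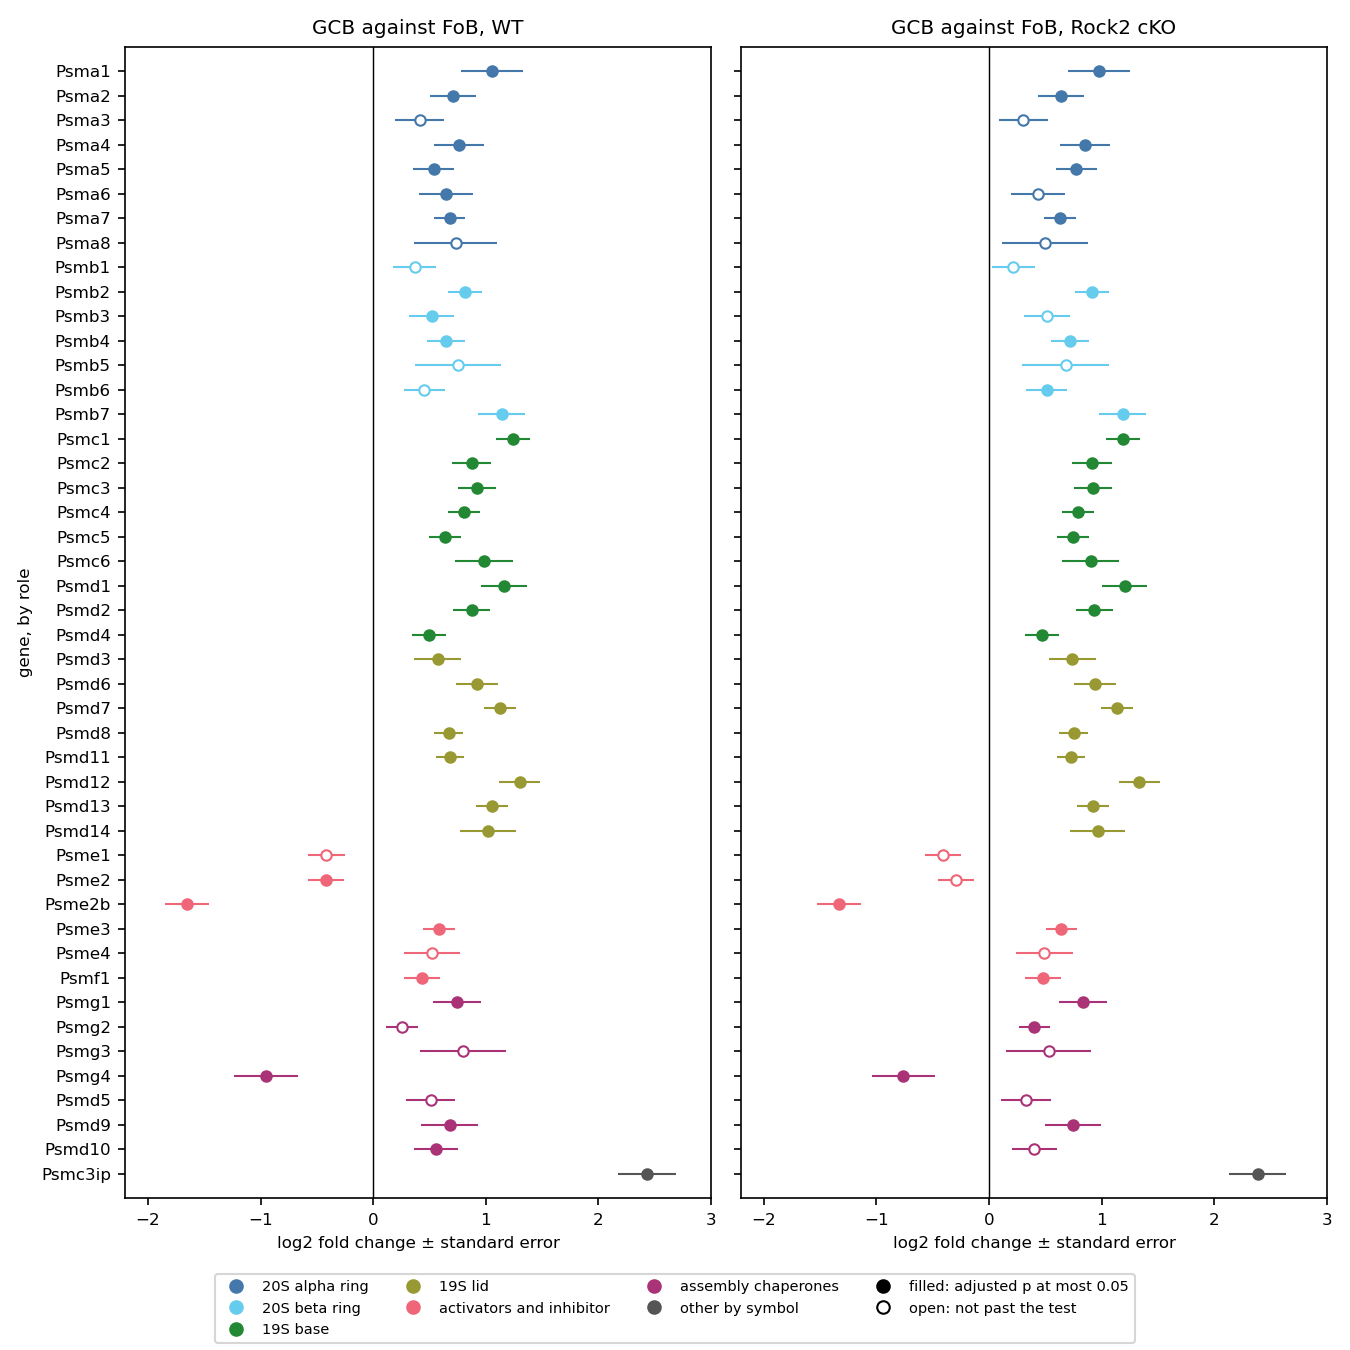
Log2 fold change of GCB against FoB (x axis, bars ± standard error) for each of the 46 members (y axis, ordered and coloured by role), in WT on the left and cKO on the right. Filled points passed the test at an adjusted p of 0.05. All 17 members of the 19S base and lid are filled and to the right of 0 in both genotypes, and Psme2b and Psmg4 are filled and to the left.

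Added together, the members took 0.436% ± 0.00684 of all counts in WT FoB and 0.670% ± 0.0308 in WT GCB (mean ± SD, n = 3). In cKO the shares were 0.430% ± 0.0239 in FoB and 0.686% ± 0.0397 in GCB. The lowest GCB library, cKO GCB 1, stood at 0.643% and the highest FoB library, cKO FoB 2, at 0.457%, so the cell types did not overlap. In sorted populations measured in bulk, fewer cells of a type and less RNA per cell cannot be told apart.

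Other gene lists moved with the same comparison. All 7 genes of a proliferation list were higher in WT GCB, and their summed level ran from 478 to 850 CPM (counts scaled to library size with TMM factors) in WT FoB and from 6170 to 7150 CPM in WT GCB. All 7 genes of an interferon list were lower, with 316 to 347 CPM in WT FoB and 108 to 119 CPM in WT GCB. Of 6 plasma cell markers, 2 were higher and 3 lower, and their sum rose from 347 to 421 CPM in WT FoB to 1010 to 1730 CPM in WT GCB. Most of that rise was Jchain, with a mean of 52.5 CPM in WT FoB and 1110 CPM in WT GCB. Xbp1 went from 102 to 177 CPM and Prdm1 from 2.42 to 2.98 CPM. Irf4 went down from 217 to 44.7 CPM, Sdc1 from 10.1 to 1.35 CPM and Fkbp11 from 4.61 to 0.404 CPM. Among the markers of other cells, 5 of 7 for T cells (6 with the block) and 4 of 4 for NK cells were lower. Their sums were 7.07 to 14.3 and 13.6 to 47.0 CPM in WT FoB, and 2.01 to 5.05 and 3.78 to 6.34 CPM in WT GCB. No T cell or NK cell marker was at 0 in all libraries of a group. Of 4 macrophage and monocyte markers tested, 2 were lower (with the block 3 lower and 1 higher). The sum over all 5 listed macrophage and monocyte markers was 19.8 to 26.9 CPM in WT FoB and 5.34 to 10.3 CPM in WT GCB. Of 2 neutrophil markers tested 0 passed (2 lower with the block). Of 4 erythroid markers tested 1 was higher. The sum over all 5 listed was 2.40 to 6.15 CPM in WT FoB and 2.48 to 6.70 CPM in WT GCB. The part of these differences in the results on proteasome genes was not tested.

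The starts of the genes were compared as sequence. RefSeq promoter sequences on GRCm38.p6 (mm10) were at hand for 38 members, and Psma8, Psmb1, Psmb2, Psmb7, Psmc3, Psmd3, Psmd7 and Psmg2 had no entry. Shown here are the 250 bases before the start of the lid gene and the ATPase gene that rose most (Psmd12 and Psmc1), the catalytic Psmb5, the interferon-inducible activators Psme1 and Psme2 and the chaperone Psmg4, the last 3 with values below 0. They lie at chr11:107479278-107479527 (plus strand, Psmd12), chr12:100109952-100110201 (plus, Psmc1), chr14:54617996-54618245 (minus, Psmb5), chr14:55578244-55578493 (plus, Psme1), chr14:55591102-55591351 (minus, Psme2) and chr13:34162714-34162963 (plus, Psmg4). Capitals mark matches, on either strand, to CCGGAAG (a sequence of the ETS type), CCAAT (the letters that NF-Y binds) and TGANNNNGC (the core of the antioxidant response element, which NFE2L1 and NFE2L2 bind).
Psmd12: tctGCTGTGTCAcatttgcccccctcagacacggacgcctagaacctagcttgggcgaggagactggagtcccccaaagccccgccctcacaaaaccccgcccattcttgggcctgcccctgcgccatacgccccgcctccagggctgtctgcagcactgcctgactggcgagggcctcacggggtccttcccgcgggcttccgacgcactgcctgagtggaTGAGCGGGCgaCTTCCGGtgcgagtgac
Psmc1: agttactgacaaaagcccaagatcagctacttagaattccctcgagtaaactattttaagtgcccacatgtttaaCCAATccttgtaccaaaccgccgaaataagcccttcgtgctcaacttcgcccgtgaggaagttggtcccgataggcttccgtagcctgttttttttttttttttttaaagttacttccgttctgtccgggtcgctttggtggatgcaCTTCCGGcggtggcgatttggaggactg
Psmb5: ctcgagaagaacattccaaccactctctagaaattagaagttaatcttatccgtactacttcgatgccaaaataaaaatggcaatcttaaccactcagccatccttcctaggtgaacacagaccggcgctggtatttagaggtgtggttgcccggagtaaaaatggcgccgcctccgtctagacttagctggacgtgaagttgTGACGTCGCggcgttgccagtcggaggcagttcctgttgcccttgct
Psme1: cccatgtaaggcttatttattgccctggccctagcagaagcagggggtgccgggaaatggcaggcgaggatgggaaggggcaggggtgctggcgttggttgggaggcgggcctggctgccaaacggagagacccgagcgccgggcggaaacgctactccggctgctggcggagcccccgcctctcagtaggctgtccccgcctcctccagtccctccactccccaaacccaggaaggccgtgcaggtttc
Psme2: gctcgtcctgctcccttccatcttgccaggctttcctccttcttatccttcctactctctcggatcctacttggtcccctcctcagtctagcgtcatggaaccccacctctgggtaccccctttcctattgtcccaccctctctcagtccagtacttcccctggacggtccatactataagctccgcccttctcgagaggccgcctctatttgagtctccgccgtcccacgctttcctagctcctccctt
Psmg4: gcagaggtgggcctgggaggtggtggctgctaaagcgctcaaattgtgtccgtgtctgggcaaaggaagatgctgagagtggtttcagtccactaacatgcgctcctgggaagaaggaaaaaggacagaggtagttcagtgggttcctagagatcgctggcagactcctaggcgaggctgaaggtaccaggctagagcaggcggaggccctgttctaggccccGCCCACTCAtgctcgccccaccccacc

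CCGGAAG was in the promoters of Psmd12 and Psmc1 and in none of the other 4 shown. It was in 13 of the 38 members with a sequence (34.2%), beside 16.6% of the 8744 tested genes with one and 6.9% of all 32851 starts. By role it was in 5 of 8 genes of the base, 3 of 6 of the lid, 1 of 7 of the alpha ring, 0 of 4 of the beta ring, 2 of 6 activators and inhibitor and 1 of 6 assembly chaperones. CCAAT was in 13 members (34.2%, beside 40.9% of tested genes and 33.8% of all starts) and TGANNNNGC in 15 (39.5%, beside 41.5% and 35.2%). Members were counted over all their annotated starts, and each of the 3 counts includes Psmc3ip, which the counts by role leave out. Of the sequences shown, those of Psmb5, Psmd12 and Psmg4 hold TGANNNNGC, that of Psmc1 holds CCAAT, and those of Psme1 and Psme2 hold none of the 3. Psme2 has 2 annotated starts, and the one not shown holds TGANNNNGC, so that Psme2 counts among the 15. Matches were allowed to overlap, and those in the sequences shown did not. A match is a description of the letters and not a measured site.

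Every member of the base and lid of the 19S cap rose. All 9 members of the base and all 8 of the lid were higher in GCB than in FoB, in WT and in cKO. Their median log2 fold changes were 0.88 and 0.97 in WT and 0.92 and 0.94 in cKO. Cap genes with other symbols, such as Sem1 and Adrm1, are left out by the rule and given below among the other parts. The base measured 1090 ± 104 summed CPM in WT FoB and 2037 ± 180 in WT GCB. The lid measured 743 ± 56.0 summed CPM in WT FoB and 1383 ± 132 in WT GCB (mean ± SD, n = 3).

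Psmd12, a scaffold subunit of the lid (chromosome 11, 107479528 to 107498036), measured 66.2, 73.3 and 59.4 CPM in WT FoB and 165, 188 and 138 CPM in WT GCB. The cKO libraries gave 60.9, 74.3 and 50.2 CPM in FoB and 142, 183 and 142 CPM in GCB. The lowest GCB library was well above the highest FoB library in both genotypes. It rose 2.47-fold in WT (edgeR adjusted p = 0.000109) and 2.52-fold in cKO (adjusted p = 0.000101), each with a standard error of 0.18 on the log2 scale.

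Psmc1, an ATPase of the base (chromosome 12, 100110202 to 100123364), measured 106, 123 and 119.9 CPM in WT FoB and 251, 300.7 and 273 CPM in WT GCB. In cKO the values were 102, 129.9 and 106 CPM in FoB and 216, 286 and 269 CPM in GCB. The groups were far apart, with no FoB library near the lowest GCB library. The log2 fold change was 1.24 ± 0.15 in WT (adjusted p = 3.82e-05) and 1.19 ± 0.15 in cKO (adjusted p = 6.01e-05).

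Psmd1, the large scaffold of the base (chromosome 1, 86064619 to 86139295), measured 102, 117 and 89.2 CPM in WT FoB and 227, 265 and 197 CPM in WT GCB. In cKO it measured 89.3, 127 and 81.4 CPM in FoB and 204, 277 and 204 CPM in GCB. All GCB libraries lay above all FoB libraries, by 1.16 ± 0.20 on the log2 scale in WT (adjusted p = 0.000561) and 1.20 ± 0.20 in cKO (adjusted p = 0.000485). The authors' table tags Psmd1 and Psmd12 as loci that overlap another gene, so part of their reads may belong to a neighbour.

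The other members of the cap spanned 0.50 to 1.13 in WT. Psmd7, the partner of the deubiquitinase in the lid, had a log2 fold change of 1.13 ± 0.14, Psmd13 of 1.06 ± 0.14 and Psmd14, the deubiquitinase itself, of 1.02 ± 0.24. Psmc6, Psmc3, Psmc2, Psmc4 and Psmc5, the other ATPases of the base, ran from 0.98 down to 0.64. Psmd4, which binds ubiquitin chains, had the smallest change of the base members at 0.50 ± 0.15 (adjusted p = 0.0175). Psmd3 had the smallest of the lid members at 0.58 ± 0.21 (adjusted p = 0.0382). In WT, Psmd4 did not pass without WT FoB 1 or WT GCB 3 (adjusted p = 0.0734 and 0.0757), and Psmd3 did not pass when cKO FoB 1 or any WT library other than WT GCB 1 was left out (adjusted p up to 0.148). In cKO, Psmd4 did not pass without cKO FoB 1 or cKO GCB 3 (adjusted p = 0.0877 and 0.0976), nor Psmd3 without cKO GCB 3 (adjusted p = 0.0604). Upper-quartile scaling and no low-count filter also ended the call of Psmd4 in WT (adjusted p = 0.0676 and 0.101) and in cKO (0.0692 and 0.114), and that of Psmd3 in WT (0.107 and 0.0787), which scaling by library totals (0.0685) and the stricter filter (0.0613) ended as well. Over 23 other settings or left-out libraries, Psmd4 passed in 16 in each genotype, and Psmd3 in 10 in WT and 20 in cKO.

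The 20S core was higher too, with fewer genes past the test. Of the 8 genes of the alpha ring, 6 rose in WT and 5 in cKO, with medians of 0.69 and 0.63. Over 23 other settings or left-out libraries, Psma6 passed in 12 in WT and Psma5 in 16. Psma2 and Psma4 passed in 19, Psma1 in 22 and Psma7 in 23. In cKO the 5 called genes passed in 18 (Psma2) to 22 (Psma5 and Psma7). Of the 7 genes of the beta ring, 4 rose in each genotype, with medians of 0.65 and 0.68, and the replicate block gave 7 of 7 in each. The 4 differed by 1 gene: Psmb3 passed in WT (adjusted p = 0.0498) and not in cKO (0.0536), and Psmb6 in cKO and not in WT. Psmb3 in WT lies at the threshold and passed in 4 of 23 other settings or left-out libraries, with adjusted p from 0.000890 to 0.198. It was lost when any single library other than WT GCB 1 or cKO GCB 3 was left out. The alpha ring measured 788 ± 114 summed CPM in WT FoB and 1308 ± 201 in WT GCB, and the beta ring 708 ± 107 and 1102 ± 132.

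The 3 catalytic subunits differed in how far they passed the test. Psmb7, with the trypsin-like site (chromosome 2, 38588046 to 38643952), measured 83.5, 99.9 and 81.9 CPM in WT FoB and 177, 227 and 182 CPM in WT GCB. Its cKO libraries stood at 72.1, 112 and 71.0 CPM in FoB and 167, 235 and 180.1 CPM in GCB. The groups did not overlap, and the log2 fold change was 1.14 ± 0.21 in WT (adjusted p = 0.000726) and 1.19 ± 0.21 in cKO (adjusted p = 0.000608).

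Psmb6, with the caspase-like site (chromosome 11, 70525324 to 70527858), measured 79.5, 105 and 100.1 CPM in WT FoB and 108, 131 and 151 CPM in WT GCB. In cKO it measured 83.9, 97.1 and 103 CPM in FoB and 117, 121 and 167 CPM in GCB. The GCB libraries were all higher, but the lowest of them was close to the highest FoB library. The log2 fold change was 0.45 ± 0.18 in WT (adjusted p = 0.0585, and 0.00101 with the replicate block) and 0.51 ± 0.18 in cKO (adjusted p = 0.0375). The cKO call was lost when WT FoB 3, any cKO FoB library, WT GCB 2, cKO GCB 2 or cKO GCB 3 was left out (adjusted p from 0.0511 to 0.169).

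Psmb5, with the chymotrypsin-like site (chromosome 14, 54614120 to 54617995), measured 14.7, 23.0 and 32.7 CPM in WT FoB and 24.1, 38.3 and 56.2 CPM in WT GCB. The values in cKO were 17.7, 22.4 and 31.0 CPM in FoB and 27.2, 30.0 and 56.8 CPM in GCB. The groups overlapped, since libraries of number 3 were high and those of number 1 low in both cell types, while each GCB library exceeded the FoB library of its number. The log2 fold change was 0.75 ± 0.39 in WT (adjusted p = 0.128) and 0.68 ± 0.39 in cKO (adjusted p = 0.170), and with the block the adjusted p was 7.10e-05 in WT and 0.000254 in cKO. The differences by number in WT were 0.71, 0.74 and 0.78. The authors' table tags Psmb5 and Psmb7 as hosts of noncoding RNA.

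Among the rest of the core, Psma1 of the alpha ring had the largest change at 1.06 ± 0.28 in WT (adjusted p = 0.00738), and the structural beta subunit Psmb2 followed Psmb7 at 0.81 ± 0.15 (adjusted p = 0.000891). Psma3 and Psmb1 did not pass in either genotype without the block, with values of 0.41 ± 0.22 and 0.37 ± 0.19 in WT. With the block both passed as higher (adjusted p = 0.000279 in WT and 0.00352 in cKO for Psma3, and 0.00188 and 0.0376 for Psmb1). Psma8, the alpha subunit of the testis, was near the low end of detection at 167 counts over all 12 libraries, and its WT value was 0.73 ± 0.37 (adjusted p = 0.120, and 0.0808 with the block).

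**Figure D2:**
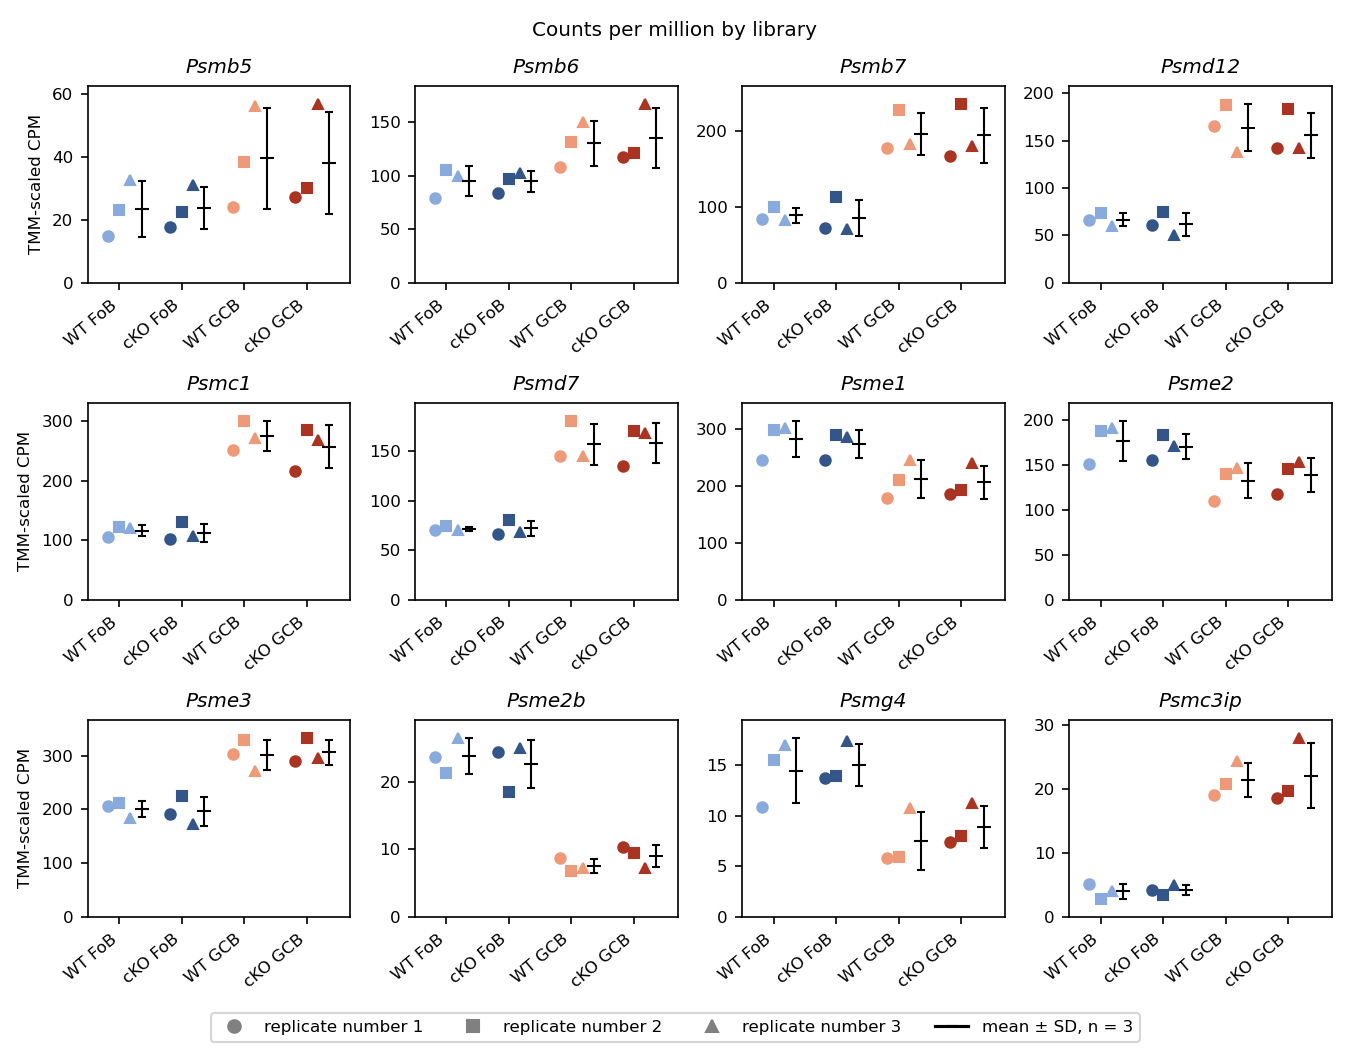
TMM-scaled CPM (y axis, from 0, with its own range in each panel) of 12 members in each library, by group (x axis), with a marker for each replicate number and the mean ± SD of 3 libraries as a black bar. Psmb7, Psmd12, Psmc1 and Psmd7 separate the cell types, Psmb5 follows the replicate number within each group, and the mean of Psme1, Psme2, Psme2b and Psmg4 is lower in GCB.

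**Figure D3:**
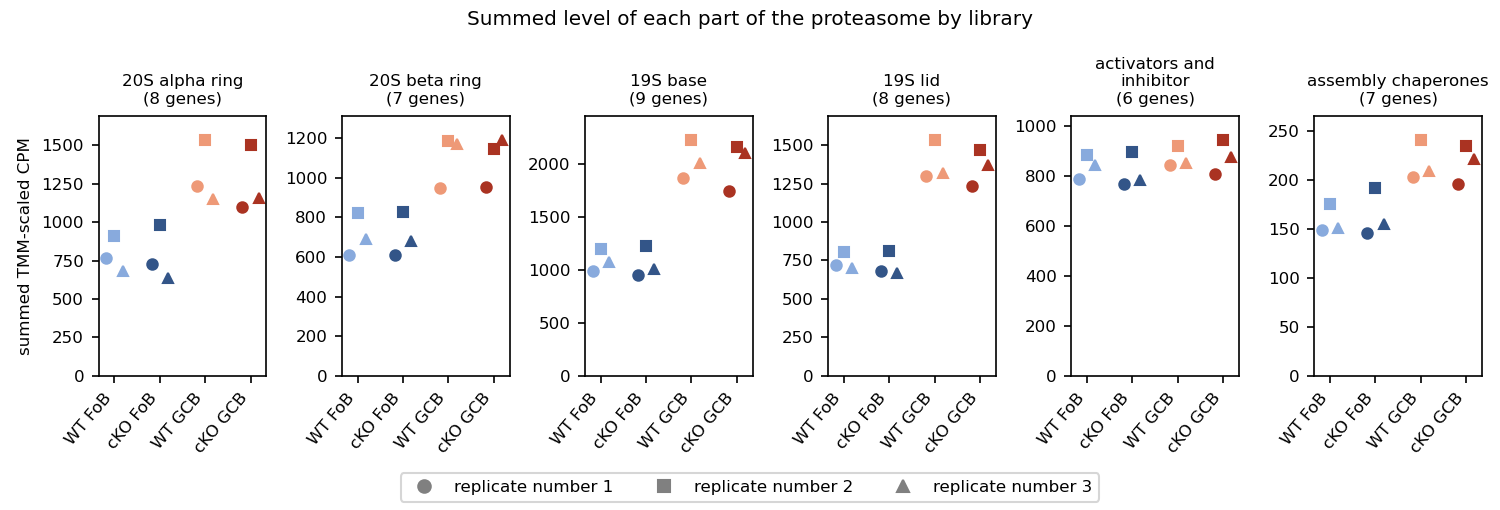
Summed TMM-scaled CPM (y axis, from 0, with its own range in each panel) of the genes of each role in each library, by group (x axis), with a marker for each replicate number. The base and lid sums are highest in GCB, and the sum over the activators and inhibitor overlaps between FoB and GCB.

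The activators went in opposite directions. Psme1 and Psme2 encode PA28 alpha and PA28 beta, which interferon induces and which form a cap in the cytoplasm, Psme3 encodes the nuclear PA28 gamma, Psme4 encodes PA200, and Psmf1 the inhibitor PI31. In WT GCB Psme3 and Psmf1 rose, Psme2 and Psme2b fell, and Psme1 and Psme4 did not pass. With the replicate block, 3 of the 6 rose and 3 fell in each genotype. Their summed level was 839 ± 48.0 CPM in WT FoB and 873 ± 41.8 in WT GCB, which overlap.

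Psme1 (chromosome 14, 55578494 to 55581527) measured 245, 299 and 302 CPM in WT FoB and 179, 209.7 and 246 CPM in WT GCB. In the cKO libraries it stood at 246, 289 and 287 CPM in FoB and 186, 193 and 239.9 CPM in GCB. The WT groups overlapped at their edges and the cKO groups were apart, with each GCB library below the FoB library of its number. The log2 fold change was -0.41 ± 0.16 in WT (adjusted p = 0.0506, and 0.000683 with the block) and -0.41 ± 0.16 in cKO (adjusted p = 0.0558, and 0.000815 with the block). DESeq2 (adjusted p = 0.0271 in WT and 0.0302 in cKO), upper-quartile scaling (0.0107 and 0.0145), library totals (0.0173 and 0.0329) and the stricter filter (0.0181 and 0.0239) called Psme1 lower in both genotypes. In all it passed in 9 of 23 other settings or left-out libraries in WT and in 6 of 23 in cKO.

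Psme2 (chromosome 14, 55587440 to 55591101) measured 151, 187 and 191 CPM in WT FoB and 110.1, 139.7 and 147 CPM in WT GCB. In cKO it measured 155, 183 and 171 CPM in FoB and 117, 145 and 153 CPM in GCB. All GCB libraries were below all FoB libraries in each genotype, by a narrow margin. The log2 fold change was -0.42 ± 0.16 in WT (adjusted p = 0.0480) and -0.29 ± 0.16 in cKO (adjusted p = 0.155, and 0.00431 with the block). The WT call rests on the threshold: over 23 other settings or left-out libraries Psme2 passed in 9, with adjusted p from 0.000347 to 0.175, and it did not pass when WT FoB 2 or 3, WT GCB 1 or 2, cKO FoB 1 or 3, or cKO GCB 2 or 3 was left out.

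Psme2b, a retrogene copy of Psme2 on chromosome 11 (48945345 to 48946410), measured 23.6, 21.2 and 26.5 CPM in WT FoB and 8.75, 6.72 and 7.22 CPM in WT GCB. Its level in cKO was 24.4, 18.5 and 25.0 CPM in FoB and 10.3, 9.49 and 7.23 CPM in GCB. The cell types were far apart in both genotypes. It fell by 1.65 ± 0.20 on the log2 scale in WT (adjusted p = 2.85e-05) and by 1.33 ± 0.19 in cKO (adjusted p = 0.000158). Reads of Psme2b and Psme2 are alike, so how the authors' counting split them is uncertain.

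Psme3 (chromosome 11, 101316213 to 101323537) measured 206, 212 and 184 CPM in WT FoB and 304, 329 and 272 CPM in WT GCB. In cKO it measured 191, 225 and 173 CPM in FoB and 289.6, 333 and 296 CPM in GCB. The GCB libraries were all above the FoB libraries, and Psme3 rose by 0.59 ± 0.14 in WT (adjusted p = 0.00441) and 0.64 ± 0.14 in cKO (adjusted p = 0.00266) on the log2 scale.

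Psme4 (chromosome 11, 30771775 to 30881150) measured 124, 119 and 95.9 CPM in WT FoB and 192, 176 and 119 CPM in WT GCB. In cKO it measured 119.6, 135 and 85.8 CPM in FoB and 155, 209 and 113 CPM in GCB. Number 3 was low in each group and the cell types overlapped, with a log2 fold change of 0.52 ± 0.25 in WT (adjusted p = 0.107, and 0.00115 with the block) and 0.49 ± 0.25 in cKO (adjusted p = 0.132, and 0.00171 with the block). The inhibitor Psmf1 rose by 0.43 ± 0.16 in WT (adjusted p = 0.0424) and 0.48 ± 0.16 in cKO (adjusted p = 0.0284). It did not pass in WT when any WT FoB library, WT GCB 2, WT GCB 3, cKO FoB 3 or cKO GCB 2 was left out (adjusted p from 0.0546 to 0.142), nor in cKO without cKO FoB 1, cKO GCB 2 or cKO GCB 3 (adjusted p from 0.0569 to 0.121).

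The nuclear and the cytoplasmic activator shifted against each other. The ratio of Psme3 to Psme1 counts, which is not scaled to transcript length, was 0.720 ± 0.117 in WT FoB and 1.46 ± 0.309 in WT GCB, and 0.720 ± 0.101 and 1.51 ± 0.249 in cKO. The highest FoB library was at 0.842 and the lowest GCB library at 1.11. The ratio of Psme1 to Psme2, whose proteins form a ring together, was 1.60 ± 0.0200 in WT FoB and 1.60 ± 0.0910 in WT GCB. In cKO it was 1.61 ± 0.0547 in FoB and 1.49 ± 0.139 in GCB, where cKO GCB 2 was lowest at 1.33.

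The assembly chaperones were mixed. Psmg1 and Psmg2 form the pair that starts the alpha ring, Psmg3 and Psmg4 a pair that helps to complete it, and Psmd5, Psmd9 and Psmd10 assist the base. Psmg1 (0.75 ± 0.21, adjusted p = 0.0123), Psmd9 (0.68 ± 0.25, adjusted p = 0.0415) and Psmd10 (0.56 ± 0.20, adjusted p = 0.0344) rose in WT GCB, and Psmg4 fell. Psmg2, Psmg3 and Psmd5 did not pass, and with the replicate block 6 of the 7 rose and 1 fell in each genotype. In cKO Psmg1, Psmg2 and Psmd9 rose and Psmg4 fell. In WT the call of Psmg1 was lost without WT FoB 3 (adjusted p = 0.0569), that of Psmd10 without WT FoB 1, WT FoB 3 or WT GCB 2 (adjusted p from 0.0984 to 0.139), and that of Psmd9 when cKO FoB 1, cKO GCB 1 or any WT library other than WT GCB 1 was left out (adjusted p from 0.0503 to 0.181). In cKO the call of Psmg2 was lost when any cKO library other than cKO FoB 2 was left out (adjusted p from 0.0559 to 0.117), and that of Psmd9 without cKO FoB 1, cKO FoB 2 or cKO GCB 3 (adjusted p from 0.0804 to 0.135).

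Psmg4 (chromosome 13, 34162964 to 34178172) measured 10.8, 15.6 and 17.0 CPM in WT FoB and 5.77, 5.88 and 10.8 CPM in WT GCB. The cKO libraries gave 13.7, 13.9 and 17.4 CPM in FoB and 7.37, 7.96 and 11.3 CPM in GCB. The WT groups met at their edges, where WT GCB 3 was just below WT FoB 1, and the cKO groups were apart. It fell by 0.95 ± 0.28 on the log2 scale in WT (adjusted p = 0.0147) and by 0.76 ± 0.28 in cKO (adjusted p = 0.0420). The WT call was lost when WT FoB 3, WT GCB 1 or WT GCB 2 was left out (adjusted p = 0.0575, 0.0605 and 0.0620), and the cKO call when WT FoB 2 or any cKO library except cKO GCB 3 was left out (adjusted p from 0.0530 to 0.132).

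Its partner Psmg3 measured 2.81, 3.29 and 6.16 CPM in WT FoB and 5.31, 6.30 and 9.75 CPM in WT GCB. The groups overlapped, and the log2 fold change was 0.80 ± 0.38 (adjusted p = 0.102, and 0.000818 with the block). The ratio of Psmg4 to Psmg3 counts was 3.78 ± 0.988 in WT FoB and 1.04 ± 0.0946 in WT GCB, and 2.91 ± 0.273 and 1.25 ± 0.318 in cKO. The authors' table tags Psmg3 as overlapping another locus.

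**Figure D4:**
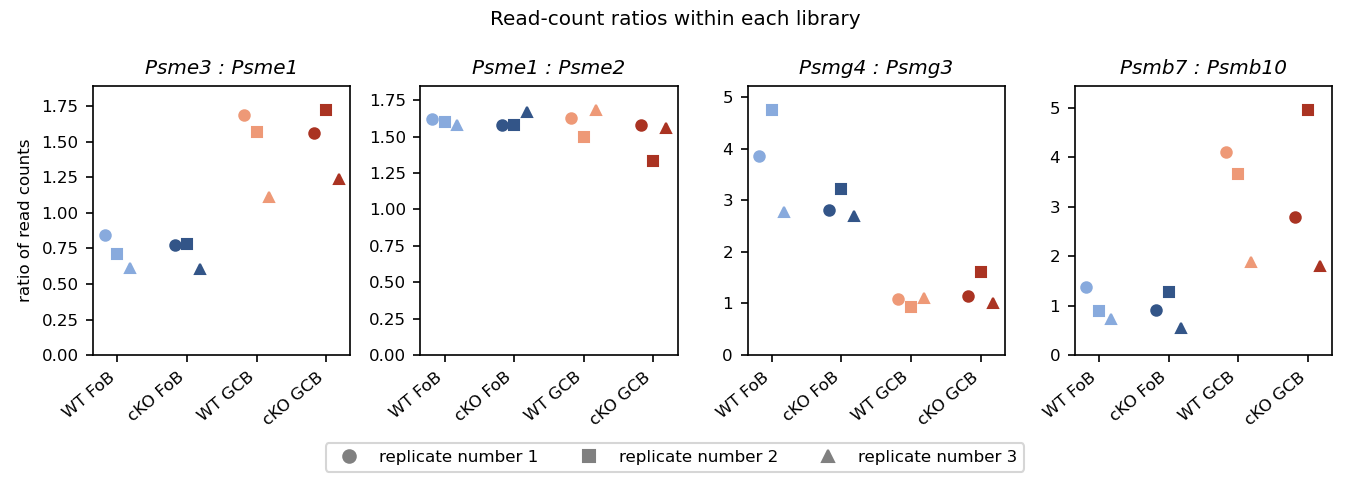
Ratios of read counts (y axis, from 0, not scaled to length, with its own range in each panel) between pairs of genes in each library, by group (x axis), with a marker for each replicate number. Psme3 to Psme1 is lowest at 1.11 in the GCB libraries and highest at 0.842 in FoB, Psmg4 to Psmg3 is lower in GCB, and Psme1 to Psme2 has a mean of 1.60 in both WT groups and of 1.49 in cKO GCB.

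Psmc3ip, which shares the symbol only (chromosome 11, 101092141 to 101095435), had the largest change of the 46. It measured 5.07, 2.77 and 4.01 CPM in WT FoB and 19.1, 20.8 and 24.3 CPM in WT GCB, and 4.20, 3.45 and 4.99 CPM in cKO FoB against 18.6, 19.7 and 28.0 CPM in cKO GCB. No library of a cell type came near the other, and the log2 fold change was 2.43 ± 0.26 in WT (adjusted p = 1.23e-05) and 2.39 ± 0.26 in cKO (adjusted p = 1.51e-05). Without it, 32 of 45 members rose in WT and 31 in cKO, with medians of 0.68 and 0.73.

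The immunoproteasome subunits, left out of the members, are the induced counterparts of the catalytic ones. None of the 3 immunoproteasome genes passed the test in WT or cKO. In WT the log2 fold changes were 0.31 ± 0.20 for Psmb8 (adjusted p = 0.233), 0.17 ± 0.18 for Psmb9 (adjusted p = 0.465) and -0.50 ± 0.35 for Psmb10 (adjusted p = 0.268). With the replicate block, Psmb8 passed as higher (adjusted p = 0.0149) and Psmb10 as lower (adjusted p = 0.0133) in WT, and in cKO Psmb10 alone passed, as lower (adjusted p = 0.0152). The count ratio of Psmb7 to Psmb10, which take the same place in the ring, was 1.00 ± 0.341 in WT FoB and 3.22 ± 1.17 in WT GCB, and 0.915 ± 0.362 and 3.18 ± 1.61 in cKO. For Psmb6 to Psmb9 it was 0.697 ± 0.0758 and 0.856 ± 0.0526 in WT, and for Psmb5 to Psmb8 0.0689 ± 0.0190 and 0.0930 ± 0.0209.

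Genes that work with the proteasome were read from 3 further lists. Of all genes tested, 25.6% rose and 22.8% fell in WT, and 24.8% and 21.8% in cKO. With the replicate block these were 35.2% and 34.3% in WT, and 34.7% and 34.3% in cKO. Of 11 other parts and partners tested, 6 rose and 0 fell in WT, with a median of 0.64, and the same counts held in cKO. With the replicate block 8 were higher and 1 (Zfand2a) lower in WT, and 8 higher and 2 (Zfand2a and Zfand5) lower in cKO. The 6 were Uchl5, a deubiquitinase of the cap (1.81 ± 0.25, adjusted p = 0.000109), Txnl1, a thioredoxin bound to the cap (1.19 ± 0.26), Ecpas, a scaffold that tethers core and cap (1.18 ± 0.18), Usp14, another deubiquitinase (1.11 ± 0.33), Pomp, which matures the core (0.88 ± 0.17), and the small lid subunit Sem1 (0.64 ± 0.22). Uchl5 measured 25.0 ± 3.81 CPM in WT FoB and 87.6 ± 18.2 CPM in WT GCB. The ubiquitin receptor Adrm1 did not pass, at 0.42 ± 0.36 (adjusted p = 0.358, and 0.00646 with the block).

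Of 7 genes around NFE2L1, the factor that raises proteasome genes when proteasome activity falls, 2 rose and 1 fell in WT and in cKO, and with the replicate block 3 rose, Syvn1 being the one added. Nfe2l1 itself measured 125, 159 and 179 CPM in WT FoB and 76.4, 69.4 and 97.4 CPM in WT GCB, with all GCB libraries lower, and it fell by 0.93 ± 0.18 on the log2 scale (adjusted p = 0.00112). Vcp, the ATPase that extracts ubiquitinated proteins, rose by 1.01 ± 0.19 (adjusted p = 0.000943), and Sel1l, of the degradation machinery of the endoplasmic reticulum, by 0.98 ± 0.14 (adjusted p = 9.31e-05). Of 13 genes for ubiquitin supply and shuttles, 4 rose in WT (Uba6, Rad23b, Ubqln1 and Nploc4, from 0.77 to 0.99) and 3 in cKO, and 0 fell in either. With the replicate block 6 were higher and 1 lower in WT, and 8 higher and 1 lower in cKO. Without the block, the counts of higher genes in the NFE2L1 and ubiquitin lists were near the shares of all genes.

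Loss of Rock2 was compared next, which asked whether the proteasome genes depend on this kinase that acts on the cytoskeleton. In GCB, 0 of 46 members passed the edgeR test in either direction, where 0.102% of all genes rose and 0% fell. No member had an unadjusted p under 0.05. DESeq2 also gave 0 members, where 125 of all 13708 genes rose and 5 fell. The replicate block gave 0 members, where 1.93% of all genes rose and 0.212% fell. The median log2 fold change was -0.01 and the lowest adjusted p was 1, or 0.442 with the block. Apart from Psma8 the values ran from -0.17 (Psma6) to 0.25 (Psme2b).

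The intervals say what size of difference these libraries allowed. In GCB the 95% interval lay within a log2 change of 1 in either direction for 45 of 46 members, Psma8 being the other, and within a 1.5-fold change for 31. With the replicate block these were 45 and 43. In FoB the intervals of 44 members lay within a log2 change of 1 and those of 38 within 1.5-fold, and 45 and 44 with the block.

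In GCB the 3 smallest p-values were those of Psma8, Psme2b and Psmg2. Psma8 measured 0.764, 0.918 and 0.762 CPM in WT and 0.526, 0.483 and 0.530 CPM in cKO. Each cKO library was lower, which held for 1 of 46 members, beside 2.95% of all genes, and for 0 members in the higher direction, beside 5.42%. The log2 fold change of Psma8 was -0.66 ± 0.37 (adjusted p = 1), that of Psme2b 0.25 ± 0.19 and that of Psmg2 0.16 ± 0.14 (adjusted p = 1 for both). Psmg2 measured 24.4, 28.0 and 23.6 CPM in WT and 28.2, 29.0 and 27.4 CPM in cKO, and these overlap.

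In FoB, too, 0 of 46 members passed in either direction, as did 0% of all genes, with and without the block. DESeq2 gave 0 members, where 1 of all 13708 genes rose and 3 fell. Without adjustment, 0 members had a p under 0.05, and 1, Psmg3, with the block. The median log2 fold change was -0.01. No member separated the genotypes, beside 1.05% of all genes higher and 1.15% lower. The 3 smallest p-values were those of Psma8 (-0.43 ± 0.38), Psmg3 (0.35 ± 0.38) and Psmd8 (-0.09 ± 0.13), each with an adjusted p of 1. Psmg3 measured 2.81, 3.29 and 6.16 CPM in WT FoB and 4.85, 4.33 and 6.47 CPM in cKO FoB, and its groups overlapped. Psmd8 measured 169, 184 and 162 CPM in WT FoB and 158, 177 and 147 CPM in cKO FoB, with each cKO library just below the WT library of its number.

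**Figure D5:**
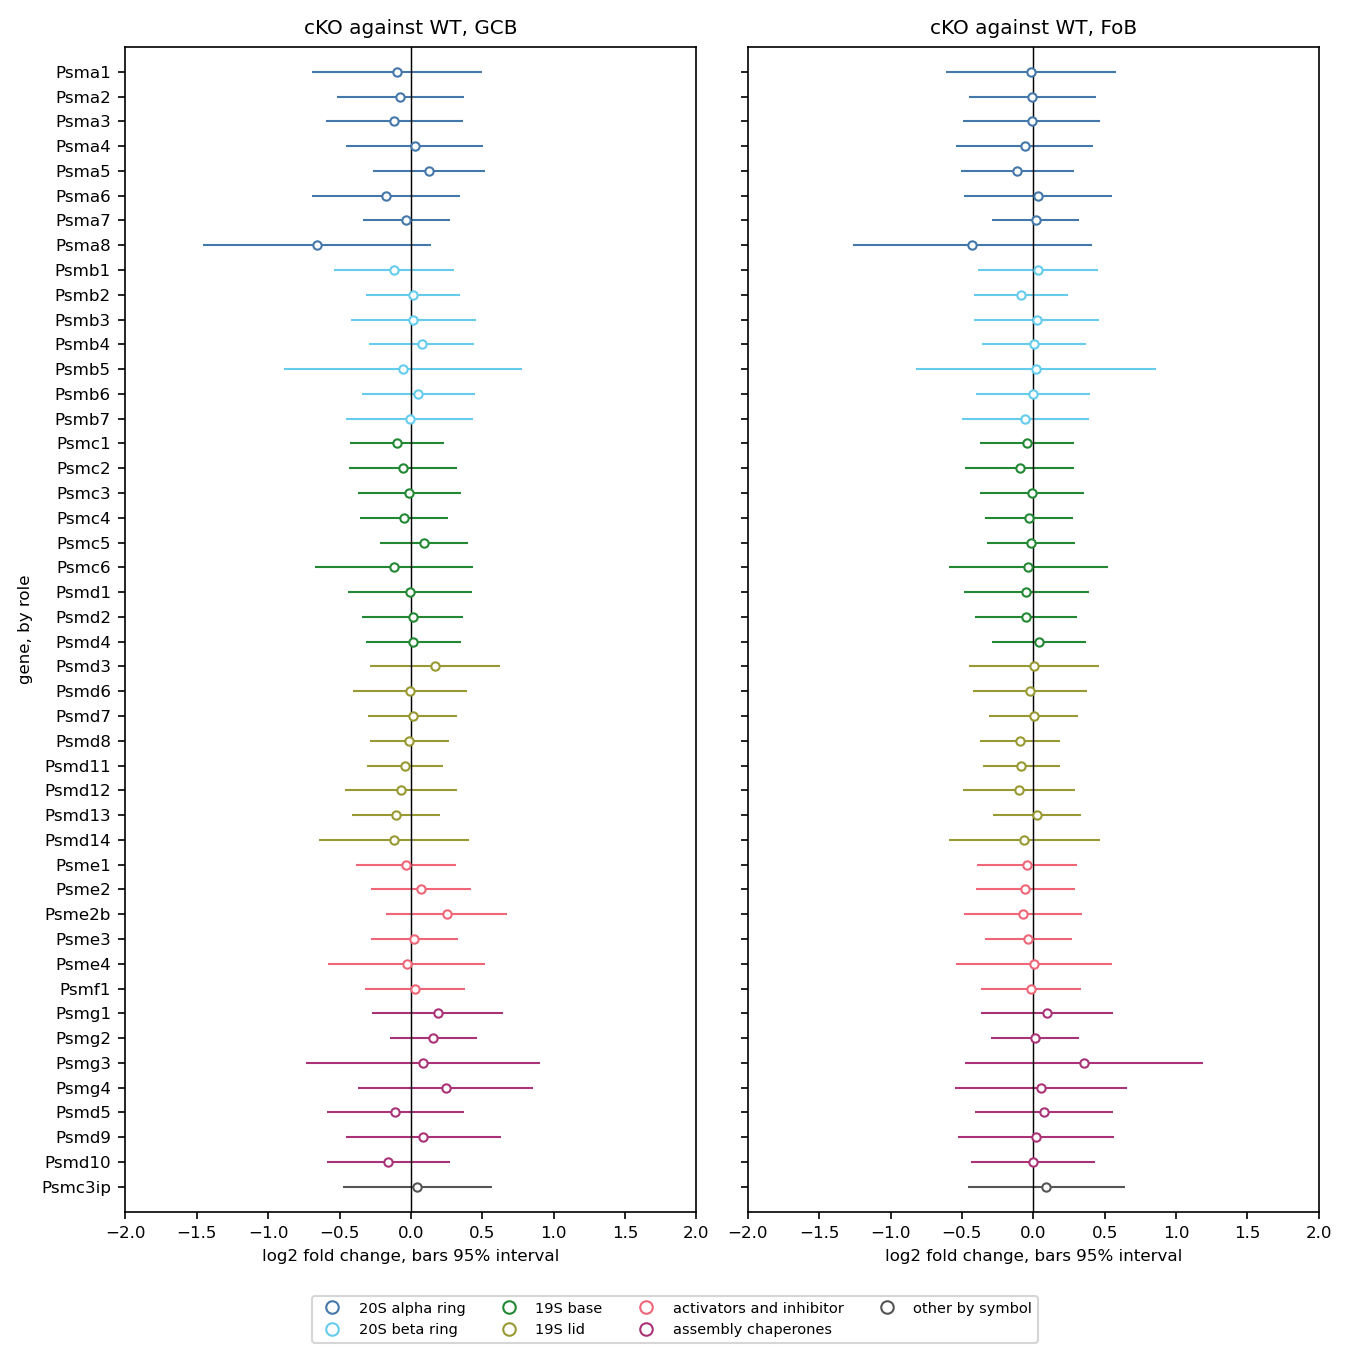
Log2 fold change of cKO against WT (x axis, bars 95% interval) for each member (y axis, ordered and coloured by role), in GCB on the left and FoB on the right. Every interval of the 46 members includes 0, and the widest are those of Psma8, Psmb5 and Psmg3.

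The genotype effect was not found to differ between the cell types. For the difference of effects (GCB minus FoB), 0 members passed, beside 0.0073% of all genes higher and 0% lower, or 0.263% higher with the block, and none had an unadjusted p under 0.05. DESeq2 gave 0. The median was 0.01, and the interval lay within a log2 change of 1 for 42 of 46 members. The smallest p-values were those of Psme2b (0.32 ± 0.27), Psma5 (0.24 ± 0.26) and Psmg2 (0.15 ± 0.20), each with an adjusted p of 1. Psma5 measured 50.5, 61.4 and 48.0 CPM in WT FoB, 44.5, 60.0 and 43.5 in cKO FoB, 72.8, 88.5 and 70.7 in WT GCB and 68.5, 95.3 and 89.4 in cKO GCB.

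The authors' deposited table of cKO against WT holds 45 of the 46 members, all but Psma8. By the authors' deposited table no member (0 of 45) passed a false discovery rate of 0.05, with log2 fold changes from -0.15 to 0.28 in GCB (lowest rate 0.848) and from -0.12 to 0.36 in FoB (lowest rate 1).

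Many members had the same highest replicate number in all 4 groups. How many of all tested genes do so was not counted, so the pattern is not shown to be particular to the members. In all 4 groups 23 members were highest in number 2, among them 6 of the 8 genes of the alpha ring and 7 of the 8 of the lid. Another 5 (Psmb5, Psmd3, Psmg3, Psmg4 and Psmd9) were highest in number 3 in all 4 groups, and 18 had no number that was highest throughout. Number 2 also held the most mitochondrially encoded RNA and had the lowest TMM factor of each group (0.919 to 0.965). A lower factor gives a higher CPM for the same counts and library total. The part of either in this pattern was not tested.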

How the data were processed

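Polyadenylated RNA of 12 libraries was analysed, made with Nextera reagents and run on a HiSeq2500 according to the labels, and 4 ATAC-seq samples were not used here. Raw gene-level read counts were taken as deposited by the authors. The authors' results table holds log2 fold changes and p-values with false discovery rates. The authors also deposited log2 CPM, not used here. The submitters' processing notes name Bowtie2, edgeR, MACS2 and mm10, with versions, read counter, annotation and strand use not given in the sources used here.

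In the main test, edgeR 4.0.16 (R 4.3.3) was run on all 12 libraries in 1 fit, with filterByExpr (13708 genes kept, 11932 left out) and TMM factors, and groups were compared by its quasi-likelihood F test. P-values were adjusted by Benjamini-Hochberg over every tested gene, with calls at 0.05 or less. The coefficient of variation was 0.266, with 8 residual degrees of freedom. CPM are TMM-scaled. The comparisons were GCB against FoB in each genotype, cKO against WT in each cell type, and their difference. The procedure was tested on simulated data. Alternatives were DESeq2 1.42.0, other scalings and filters, the groups compared alone, a replicate block and libraries left out.

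Deviations from group means correlated at 0.478 to 0.753 in the 18 same-number pairs of libraries. The 36 pairs of different numbers correlated at -0.654 to 0.0952. Deviations cancel within a group, so the low values between numbers follow from the high ones within a number. Libraries of a number thus deviated together, and no label says what a number stands for. The block fit had a coefficient of variation of 0.114.

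Members, roles, lists and markers were chosen with earlier results of these data known. Values in every library were given for Psmb5, Psmb6, Psmb7, Psme1 to Psme4, the 5 higher and 5 lower members of largest change past the test in WT (3 lower passed), and, with no genotype call, the 3 smallest p-values. Psmg3 was given beside its partner. Levels were not compared between genes, since no transcript lengths were used. Paaf1 was not analysed here.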

Additional observations from a re-analysis of the deposited data

How the results depend on the processing

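Leaving out 1 library at a time gave 24 to 34 higher and 1 to 4 lower members in WT, with medians of 0.615 to 0.752, and 26 to 33 higher and 1 to 3 lower in cKO, with medians of 0.664 to 0.808. Over all genes it gave 2944 to 3663 higher and 2608 to 3285 lower in WT, and 2973 to 3411 and 2517 to 2984 in cKO. In the genotype comparisons it gave 0 members, with medians of -0.073 to 0.071 in GCB, -0.14 to 0.045 in FoB and -0.051 to 0.117 for the difference. The count of lower members in WT was 1 without WT FoB 3, WT GCB 1 or WT GCB 2, and in cKO 1 without WT FoB 2, any cKO FoB library, cKO GCB 1 or cKO GCB 2. Leaving out all libraries of a number, an alternative chosen after seeing the data, gave 18 to 28 higher and 1 to 2 lower members in WT (medians 0.639 to 0.698), and 20 to 27 and 1 to 2 in cKO (medians 0.646 to 0.766), with fewer samples in the fit. Over all genes it gave 2417 to 2844 higher and 2198 to 2916 lower in WT, and 2463 to 2891 and 2009 to 2666 in cKO.

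The WT median was 0.536 with upper-quartile scaling, 0.620 with library totals alone, 0.622 without the filter and 0.615 with the stricter filter (5 CPM). Upper-quartile scaling moved the median of all genes to -0.157 in WT and -0.149 in cKO. It gave 4 lower members in cKO, as did the replicate block. With the block the counts of WT were 41 higher and 4 lower, and of the genotype comparisons 0. At an adjusted p of 0.01, 23 members passed in WT, and the share of all genes at that threshold was not counted. Among results on single genes, 201 alternatives lost a call, 53 gained one and 0 reversed the direction of a value. The cause of these changes was not tested. Low counts limit Psma8 (167 counts in all).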
